A study of Homo sapiens with 6 samples.

Results

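Ligands, receptors, SMADs and direct regulators of the TGF-β and BMP pathways were followed in HCT116 cells, a human colon cancer line, with and without forced expression of cytoglobin (CYGB, a haem-containing globin). The 38 genes (members below) were picked by name from the gene symbols of the deposited table, which holds 40173 genes. Every symbol matched 1 gene, and 35 of the 38 had enough counts to be tested among 19987 genes. MOCK cells, labelled wild type, carried a control lentivirus. CYGB cells carried a lentivirus with the CYGB coding region fused to FLAG. Both lines had been selected with puromycin, and each is 1 stably transduced population, so CYGB and other differences between these populations cannot be told apart. Each group had 3 libraries of total RNA, described by the submitters as biological replicates. The cells were at passage 15 to 20 with no other treatment, and the labels do not say whether the replicates were separate cultures, so p-values measure the spread between these libraries.

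TGF-β, activin and BMP ligands bind pairs of type II and type I receptor kinases. The type I receptor phosphorylates receptor SMADs, SMAD2 and SMAD3 in the TGF-β and activin branch and SMAD1, SMAD5 and SMAD9 in the BMP branch, which enter the nucleus with SMAD4. In the colon epithelium the TGF-β branch restrains growth and the BMP branch accompanies differentiation, and colon cancers often carry mutations in TGFBR2, ACVR2A or SMAD4. HCT116 is deficient in DNA mismatch repair, and runs of a single base in coding sequence are common sites of frameshift in such cells. The run of adenines in TGFBR2 and those in ACVR2A are the known examples in this pathway, and they are shown because the counts below include reads from these genes whether or not the reading frame is intact. In each line the run is in capitals with 20 bases of coding sequence on either side, from GENCODE 29 on GRCh38, plus strand.
TGFBR2 exon, chr3:30650380-30650389: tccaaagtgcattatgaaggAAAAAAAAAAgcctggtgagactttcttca
ACVR2A first run, chr2:147899472-147899479: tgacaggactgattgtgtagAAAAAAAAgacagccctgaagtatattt
ACVR2A second run, chr2:147926117-147926124: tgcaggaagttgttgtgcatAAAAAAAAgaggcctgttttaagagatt
A run of at least 10 adenines was present in the most abundant coding transcript of 46 of 14272 tested genes (0.322%), TGFBR2 being the single member. At least 8 were present in 620 genes (4.34%), among them 3 members, the third being TGFB2. The table holds counts and no bases, so the length of the runs in these cells was not analysed here.

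A second set of sequences separates isoforms whose counts are described below. They are coding exons that one transcript of a gene carries and another lacks, in lower case, and the 12 coding bases in capitals, with 20 bases on either side, by which 2 TGFBR1 transcripts part.
TGFBR2, in ENST00000359013 and not in ENST00000295754, chr3:30623199-30623273, plus strand: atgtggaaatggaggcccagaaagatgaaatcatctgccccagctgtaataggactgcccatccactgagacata
TGFBR1, in ENST00000552516 and not in ENST00000374994, chr9:99132497-99132508, plus strand: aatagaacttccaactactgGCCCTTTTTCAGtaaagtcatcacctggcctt
SMAD9, in ENST00000399275 and not in ENST00000350148, chr13:36867273-36867383, minus strand: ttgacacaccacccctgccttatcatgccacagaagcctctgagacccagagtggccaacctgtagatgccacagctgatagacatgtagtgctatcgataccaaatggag
BMP7, in ENST00000395863 and not in ENST00000395864, chr20:57183722-57183919, minus strand: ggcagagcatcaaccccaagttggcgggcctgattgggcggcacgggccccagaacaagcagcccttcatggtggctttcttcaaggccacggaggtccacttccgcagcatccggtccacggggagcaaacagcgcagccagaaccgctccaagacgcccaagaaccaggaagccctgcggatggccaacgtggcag
These exons are short beside the transcripts, which bears on how far counts can be divided between isoforms.

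Libraries held 47193496 to 53006853 counts with a gene in MOCK and 50117465 to 53531777 in CYGB. CYGB itself had 10, 28 and 34 counts in MOCK and 34935, 27681 and 32333 in CYGB libraries, or 10.35 on the log2 scale of the fold change (adjusted p = 0.00226, edgeR's quasi-likelihood test). Summed levels of 7 epithelial markers were 5178 to 5640 TPM (a level per transcript length, scaled to the same sum in each library) in MOCK and 5224 to 5563 TPM in CYGB, with 2 of them, VIL1 and CLDN4, at no more than 87 counts in any library. Of 6 fibroblast markers, COL1A1 alone was above 60 counts, and the summed level was 17.7 to 18.7 TPM in MOCK and 19.3 to 25.6 TPM in CYGB. Summed levels were at most 1.36 TPM for 4 endothelial and 2.43 TPM for 5 leukocyte markers. In bulk RNA, fewer cells with a transcript and less of it per cell cannot be told apart.

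No member passed a threshold at the level of the gene. A gene was called at an unadjusted p of at most 0.01 with a ratio of at least 2 or at most 0.5, the threshold of the study's methods, which 0 of 35 members passed, against 0.565% of all tested genes. At an adjusted p under 0.05 there were 0 members with edgeR's quasi-likelihood test, against 0.0550% of all tested genes, and 0 with DESeq2, against 0.543%. An unadjusted p under 0.05 was reached by 0 members with edgeR, against 4.54% of all tested genes, and by 1, SMAD6, with DESeq2, against 6.16%. The CPM of the 3 CYGB libraries lay wholly above or below that of the 3 MOCK libraries in 0 members, against 11.0% of all tested genes. Fold changes lay above 0 for 14 members and below 0 for 21, with a median of -0.04 on the log2 scale, against -0.01 over all tested genes. The median size of the change regardless of sign was 0.16, against 0.18 over all tested genes.

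How much change the data leave room for differed between members. For 23 of the 35 the 95% interval of the fold change stayed within a 2-fold change in either direction, and for 17 within 1.5-fold. The narrowest intervals belonged to SMURF2 (log2 fold change -0.06, 95% interval -0.24 to 0.11), ID3 (0.05, -0.13 to 0.24), TGFBR2 (0.02, -0.19 to 0.22), SMAD3 (-0.10, -0.31 to 0.11) and BMPR2 (-0.01, -0.23 to 0.21). The widest belonged to ACVR2B (0.81, -2.63 to 4.26), SMAD5 (0.64, -1.59 to 2.86) and ACVR1 (0.75, -0.83 to 2.33). For these a change of several fold in either direction, or in the case of ACVR1 upward, was within the error.

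**Figure D1:**
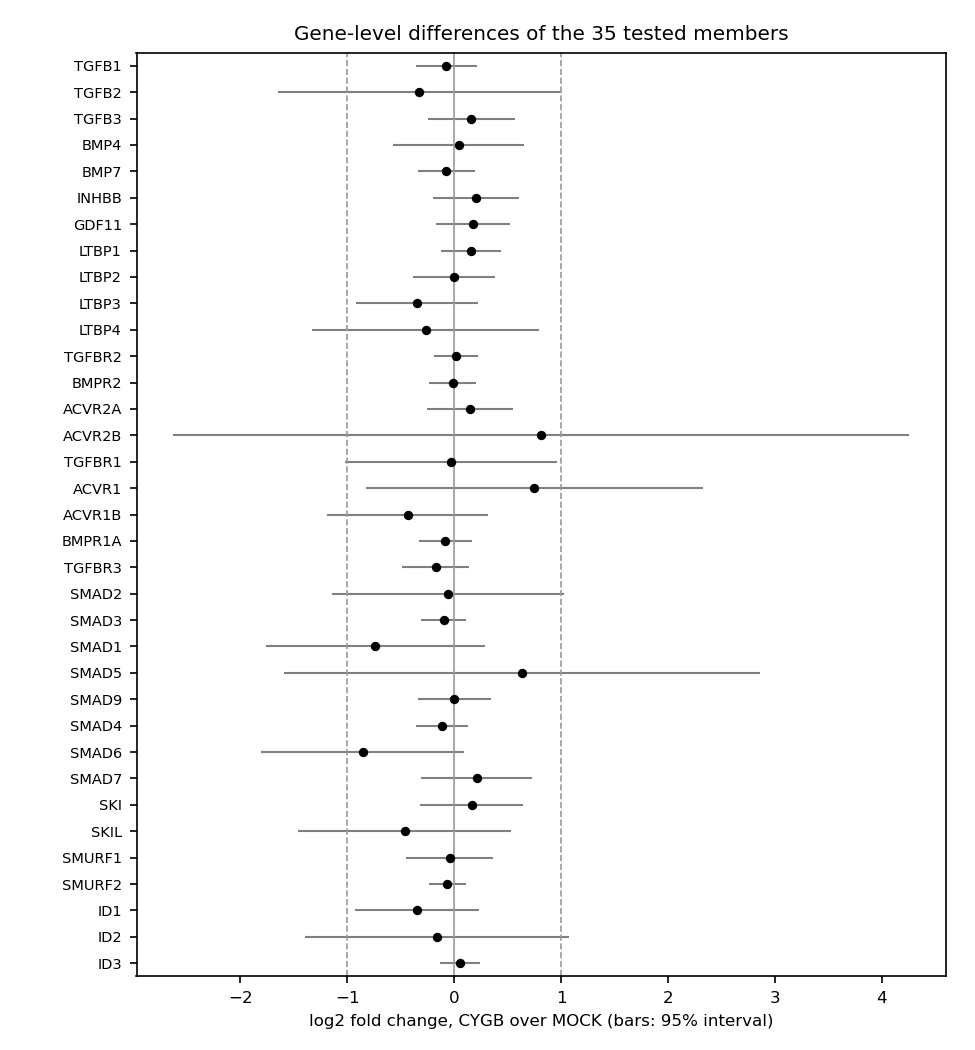
Gene-level log2 fold change of CYGB over MOCK (horizontal axis) for the 35 tested members, with points for the estimate and bars for the 95% interval of edgeR's quasi-likelihood fit. Dashed lines mark a 2-fold change. Every interval includes 0, and those of ACVR2B, SMAD5 and ACVR1 are the widest.

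Among the ligands, TGFB1, the main TGF-β of most epithelia and stroma, stood far above the other TGF-βs. Its counts were 7660, 7945 and 6445 in MOCK and 6700, 6850 and 7836 in CYGB, or 106 ± 13.3 and 101 ± 4.37 TPM (SD, n = 3 each). The groups overlapped, and the log2 fold change was -0.07 (standard error, SE, 0.12). TGFB3 was lower by more than an order of magnitude per length, at 4.70 ± 0.655 TPM in MOCK and 4.87 ± 0.295 TPM in CYGB (SD, n = 3 each), from 174, 161 and 189 counts and 179, 206 and 211 counts. TGFB2 was near the floor of what was tested, with 21, 43 and 97 counts in MOCK and 37, 36 and 56 in CYGB, and its interval reached from -1.65 to 1.00 on the log2 scale. TGFB1 lies across 4 other coding genes of the opposite strand, of which HNRNPUL1 held 10914 to 14736 counts in every library. The library kit was unstranded, so reads of TGFB1 and of such a partner cannot be told apart where their exons overlap.

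BMP4 was the leading BMP, at 70.8 ± 8.82 TPM in MOCK and 74.0 ± 16.4 TPM in CYGB (SD, n = 3 each). Its 3118, 2528 and 3326 counts in MOCK fell within the 2107, 3279 and 4069 counts of the CYGB libraries. BMP7, which pairs with BMP4 in active heterodimers, had 1004, 1177 and 1040 counts in MOCK and 980, 1024 and 1108 in CYGB (log2 fold change -0.07, SE 0.11). Per length it was 11.0 ± 0.373 TPM in MOCK and 11.8 ± 0.365 TPM in CYGB (SD, n = 3 each). By that measure every CYGB library was above every MOCK library, while in CPM the groups overlapped. BMP2 was close to silent, at 8, 8 and 12 counts in MOCK and 16, 0 and 6 in CYGB. The activin subunit gene INHBA likewise had no more than 10 counts in any library, and neither was tested. INHBB, the other activin subunit, had 191, 194 and 204 counts in MOCK and 254, 230 and 207 in CYGB, so that the CYGB libraries were level with MOCK or above it, but the normalised groups overlapped (log2 fold change 0.21, SE 0.17). GDF11, a ligand of activin receptors, had 811, 815 and 790 counts in MOCK and 1043, 826 and 913 in CYGB (log2 fold change 0.18, SE 0.14). It shares its locus with SARNP of the opposite strand, which had 2923 to 3314 counts.

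Latent TGF-β binding proteins are matrix proteins, some of which hold secreted TGF-β until it is released. LTBP4 and LTBP3 were the abundant members of this family and LTBP1 and LTBP2 the minor ones. LTBP4 had 10093, 10148 and 5600 counts in MOCK and 9254, 9053 and 3487 in CYGB, a level of 116 ± 35.5 and 108 ± 35.2 TPM (SD, n = 3 each). The third library of each group was the low one, so the spread within groups exceeded the difference between them. LTBP3 had 7190, 5765 and 5482 counts in MOCK and 6244, 4717 and 3837 in CYGB. The groups overlapped at a log2 fold change of -0.35 (SE 0.23). LTBP1, at 1289, 1252 and 1296 counts against 1335, 1447 and 1580, had a log2 fold change of 0.16 (SE 0.12). LTBP2, at 449 to 625 counts in all libraries, had a log2 fold change of -0.0022 (SE 0.16).

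Type II receptors activate the type I partner, and those for TGF-β and activins bind the ligand first. TGFBR2 was the steadiest of these genes, with 2944, 3152 and 2955 counts in MOCK and 3095, 3153 and 3071 in CYGB. Per length this was 25.0 ± 0.708 TPM in MOCK and 25.8 ± 1.49 TPM in CYGB (SD, n = 3 each), the highest level of the type II receptors. BMPR2, the type II receptor for BMPs, was nearly as even, at 2988, 3230 and 3357 counts in MOCK and 2983, 3402 and 3257 in CYGB. ACVR2A, an activin receptor that also serves BMPs, had 801, 1055 and 707 counts in MOCK and 905, 969 and 1005 in CYGB (log2 fold change 0.15, SE 0.17). Its neighbour on the opposite strand, ORC4, overlaps it and had 2710 to 3379 counts. ACVR2B, the other activin receptor of this type, was unlike the rest. It had 302, 145 and 3167 counts in MOCK and 149, 3104 and 3164 in CYGB, so 3 libraries lay between 145 and 302 counts and the other 3 lay above 3100, on both sides of the design.

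Type I receptors carry the signal to the SMADs. TGFBR1, the type I receptor for TGF-β, had 4611, 5437 and 2810 counts in MOCK and 5091, 5443 and 2216 in CYGB, 27.4 ± 7.02 and 28.2 ± 12.3 TPM (SD, n = 3 each). Here too the third library of either group was the low one, and the log2 fold change was -0.03 (SE 0.41). BMPR1A, a type I receptor for BMPs, had 3784, 4184 and 3883 counts in MOCK and 4016, 3893 and 3454 in CYGB. The groups overlapped, although CYGB replicate 3 was below every MOCK library. BMPR1B, a relative of BMPR1A, had at most 10 counts in any library and was not tested. ACVR1, a type I receptor for BMPs and activins, had 1061, 213 and 1408 counts in MOCK and 1494, 1896 and 1240 in CYGB. MOCK replicate 2 alone was low, and without it the log2 fold change fell from 0.75 to 0.28. ACVR1B, the activin type I receptor, had 985, 1336 and 1219 counts in MOCK and 782, 553 and 1326 in CYGB (log2 fold change -0.44, SE 0.31). CYGB replicate 3 was level with MOCK, and without it the log2 fold change of ACVR1B was -0.82 (adjusted p = 0.977 by edgeR's quasi-likelihood test). TGFBR3, a co-receptor that presents ligand, had 1313, 1438 and 1625 counts in MOCK and 1153, 1340 and 1447 in CYGB (log2 fold change -0.17, SE 0.13).

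**Figure D2:**
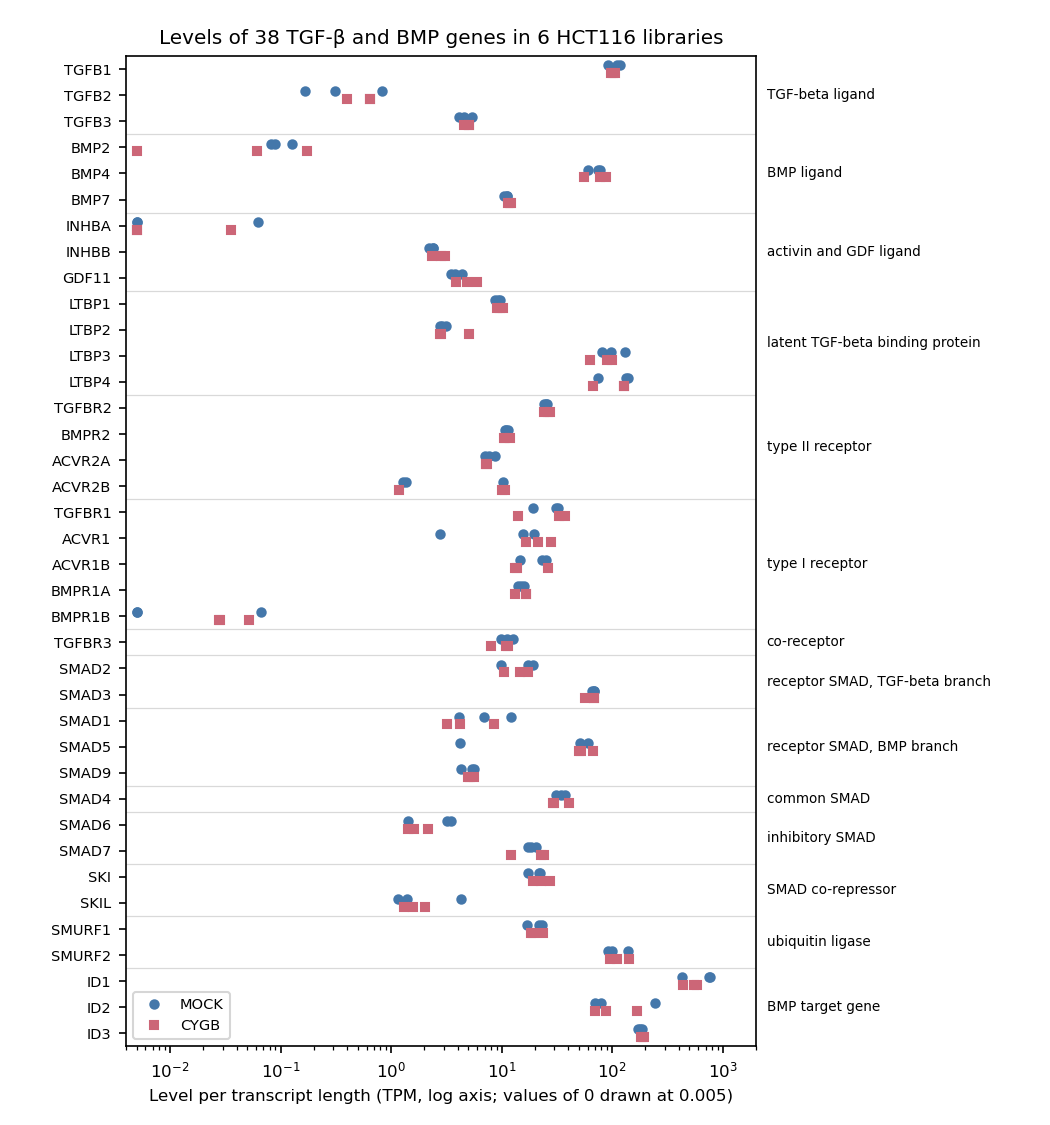
Level per transcript length (TPM, log axis) of the 38 members in each of the 3 MOCK (circles) and 3 CYGB libraries (squares), grouped by role, with values of 0 drawn at 0.005. ID1 is at the top of the range and BMP2, INHBA and BMPR1B at the bottom. In no tested member are the groups apart in CPM. In TPM, as drawn here, those of BMP7 are apart, at 10.6 to 11.3 in MOCK and 11.4 to 12.1 in CYGB.

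Of the SMADs, SMAD3 and SMAD5 had the highest levels and SMAD6 the lowest. SMAD3 had 9619, 10162 and 10350 counts in MOCK and 8468, 9632 and 10526 in CYGB, 67.4 ± 2.07 and 64.5 ± 6.81 TPM (SD, n = 3 each). SMAD2, its partner in the TGF-β branch, was less even, at 1115, 3939 and 3562 counts in MOCK and 3214, 1952 and 3093 in CYGB. In MOCK replicate 1 the transcript ENST00000356825 had 119 counts, against 994 to 2875 in the other libraries, whereas ENST00000262160 had 576 to 738 counts in all 6. SMAD4, the partner shared by both branches, had 4899, 6239 and 5893 counts in MOCK and 4871, 5815 and 5236 in CYGB (log2 fold change -0.11, SE 0.10), or 34.1 ± 3.06 and 33.1 ± 6.45 TPM (SD, n = 3 each).

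In the BMP branch, SMAD5 was the most abundant receptor SMAD at 38.9 ± 30.4 TPM in MOCK and 56.6 ± 9.47 TPM in CYGB (SD, n = 3 each). Its counts of 5672, 358 and 5741 in MOCK and 7214, 7601 and 4110 in CYGB placed MOCK replicate 2 far below the other 5 libraries. Without that library the log2 fold change was 0.09, against 0.64 with it. SMAD1 had 411, 214 and 206 counts in MOCK and 220, 182 and 111 in CYGB, with MOCK replicate 1 highest. Its log2 fold change of -0.74 (SE 0.42, adjusted p = 0.963 by edgeR's quasi-likelihood test) was -0.27 without that library. SMAD9 had 586, 833 and 775 counts in MOCK and 710, 769 and 742 in CYGB, a log2 fold change of 0.00 (SE 0.14).

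Inhibitory SMADs are themselves induced by the pathway and close a feedback loop, SMAD7 on both branches and SMAD6 mainly on the BMP branch. SMAD7 had 857, 987 and 1105 counts in MOCK and 1325, 818 and 1322 in CYGB. CYGB replicates 1 and 3 were above all MOCK libraries and CYGB replicate 2 below them, with a log2 fold change of 0.21 (SE 0.21). SMAD6 came nearest to a difference of all members. Its counts were 362, 368 and 141 in MOCK and 169, 149 and 175 in CYGB, so MOCK replicates 1 and 2 were above every CYGB library and MOCK replicate 3 was at their level. The log2 fold change was -0.85 (SE 0.39, 95% interval -1.80 to 0.10, adjusted p = 0.963 by edgeR's quasi-likelihood test). Without MOCK replicate 3 it was -1.19 and passed the threshold of the study's methods (adjusted p = 0.303 by the same test). The counts of SMAD6 were also spread over 2 transcripts. The coding ENST00000288840 had 105, 334 and 119 counts in MOCK and 0, 109 and 83 in CYGB, and ENST00000612349, which is not coding, had 255, 32 and 18 counts in MOCK and 154, 37 and 92 in CYGB.

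The promoter of SMAD6 was read for the palindrome GTCTAGAC, to which SMAD3 and SMAD4 bind in vitro. It is shown in capitals within 30 bases that end at the start of transcription in RefSeq (GRCh38.p14, plus strand), where the motif begins at position -12.
SMAD6, chr15:66702206-66702235: ccgcggagccgccaaagtGTCTAGACtggc
The palindrome, searched on both strands in the 250 bases before each start, was present in 64 of 35116 promoters (0.182%). Of 66 promoters of 35 members with an entry, that of SMAD6 was the single one. GGCGCC, the GC-rich site of BMP SMADs, does not overlap that palindrome. It was in 16.4% of all promoters and in 15 of the 66, which belong to 13 members, among them SMAD1, SMAD4, BMP4 and BMPR2. A match of letters is a description and not a site of binding.

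SKI and SKIL are co-repressors that bind SMADs, and SMURF1 and SMURF2 are ubiquitin ligases that remove SMADs and receptors. SKI had 3089, 3140 and 2273 counts in MOCK and 3823, 3090 and 2773 in CYGB (log2 fold change 0.16, SE 0.20), or 20.4 ± 2.81 and 22.9 ± 4.07 TPM (SD, n = 3 each). SKIL was low, at 38 to 90 counts, with the highest value in MOCK replicate 1. SMURF2 was the leading ligase, with 11973, 14400 and 13948 counts in MOCK and 12896, 13586 and 12640 in CYGB, 111 ± 25.4 and 117 ± 23.9 TPM (SD, n = 3 each). SMURF1 had 2287, 3524 and 3215 counts in MOCK and 3392, 2657 and 2783 in CYGB. It overlaps TRRAP of the opposite strand, which had 4089 to 5006 counts in MOCK and 5857 to 7160 in CYGB.

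ID1, ID2 and ID3, inhibitors of basic helix-loop-helix factors, are direct targets of BMP receptor SMADs, and ID1 and ID3 were the members with the highest levels. ID1 reached 652 ± 191 TPM in MOCK and 523 ± 80.6 TPM in CYGB (SD, n = 3 each), against a median of 8.25 TPM over all tested genes. Its counts were 19085, 21309 and 11726 in MOCK and 14244, 15223 and 12219 in CYGB, with MOCK replicate 3 below all CYGB libraries and the other MOCK libraries above them. The log2 fold change was -0.35 (SE 0.24) and, without MOCK replicate 3, -0.57 (adjusted p = 0.607 by edgeR's quasi-likelihood test). ID3 had 5518, 5784 and 6047 counts in MOCK and 6108, 5707 and 6465 in CYGB (log2 fold change 0.05, SE 0.08). ID2 had 7961, 3331 and 3532 counts in MOCK and 3405, 7215 and 3112 in CYGB, so that 1 library of each group was at more than double the others.

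Members that jumped between libraries of 1 group were about as frequent as such genes in the whole table. Of 34 members with a mean of at least 50 counts, 3 (8.82%) had a 4-fold or wider spread of CPM within a group, against 8.70% of such genes in the whole table. These were ACVR2B (22.4-fold), SMAD5 (17.7-fold) and ACVR1 (6.79-fold), and the next was SMAD2 (3.16-fold). The median spread was 1.42-fold for members and 1.45-fold for all such genes. In ACVR2B the jump was carried by ENST00000352511, with 246, 66 and 3147 counts in MOCK and 88, 3036 and 3080 in CYGB. In SMAD5 it was carried by ENST00000545279 (5288, 171 and 5110 counts in MOCK, and 6669, 7384 and 3425 in CYGB). The antisense genes of both loci were low in every library, at 31 to 59 counts for ACVR2B-AS1 and 0 to 37 for SMAD5-AS1. No other annotated gene that overlaps these loci held more than 2 counts in a library. With an unstranded kit these counts do not show which strand a read came from, and the cause of the jumps was not tested.

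**Figure D3:**
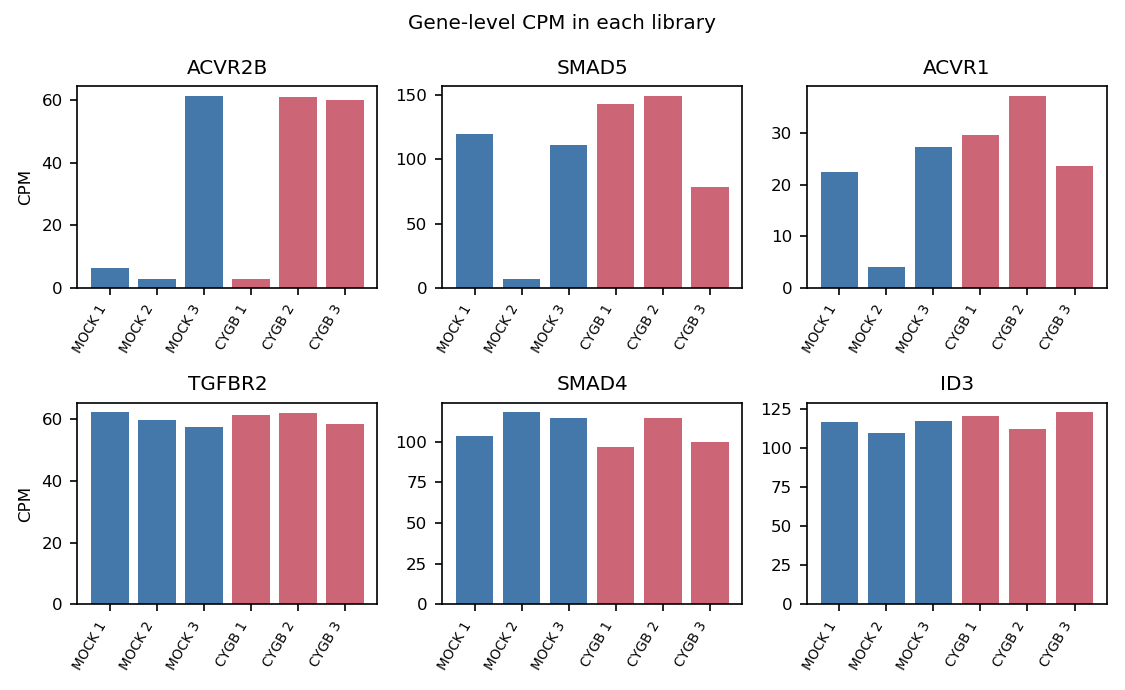
Gene-level CPM (counts scaled to library size, vertical axis from 0) in each of the 6 libraries, MOCK in blue and CYGB in red. The upper row has the 3 members with the widest spread within a group, ACVR2B, SMAD5 and ACVR1, and the lower row has TGFBR2, SMAD4 and ID3, whose spread within a group was at most 1.19-fold.

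Transcripts were then tested in the same way, since the table counts them. It lists 273 transcripts of the members, and 143 were tested among 66609. The threshold of the study's methods was passed by 4 of the 143 (2.80%), against 1.02% of all tested transcripts. One was higher in CYGB, where 0.540% of all tested transcripts were, and 3 were lower, where 0.482% were. At an adjusted p under 0.05 there were 0 of the 143 with edgeR's quasi-likelihood test, against 0.0150% of all tested transcripts, and 4, the same transcripts, with DESeq2, against 1.14%. An unadjusted p under 0.05 was reached by 7 of the 143 with edgeR, against 3.78% of all tested transcripts. Groups did not overlap in 16 (11.2%), against 10.4% of all tested transcripts.

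A minor transcript of BMP7 was the one that was higher. ENST00000395864, which lacks the BMP7 exon printed above, had 0, 0 and 0 counts in MOCK and 56, 39 and 79 in CYGB (adjusted p = 0.226 by edgeR's quasi-likelihood test). Against an assumed floor of 3 counts in each MOCK library it was 19.1-fold higher, a value that rests on that floor. Only the CYGB libraries gave this transcript enough counts, so being tested already depended on the group where it was high. It made up 3.81 to 7.13% of the gene's counts in the CYGB libraries. ENST00000450594, another minor BMP7 transcript, had 26, 29 and 19 counts in MOCK and 48, 59 and 54 in CYGB, a log2 fold change of 1.11 (SE 0.32), with an unadjusted p under 0.05 but above 0.01. The main transcript ENST00000395863 had 965, 1144 and 1011 counts in MOCK and 866, 911 and 965 in CYGB. Of the 150-base windows of ENST00000395864, 9.27% were in no other BMP7 transcript of the table, against 46.1% for ENST00000395863.

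The 3 transcripts that were lower belonged to LTBP3, LTBP4 and BMPR1A. The coding LTBP3 transcript ENST00000301873 had 1757, 855 and 1868 counts in MOCK and 215, 377 and 540 in CYGB, a log2 fold change of -2.01 (SE 0.49, adjusted p = 0.787 by edgeR's quasi-likelihood test). Its share of the gene's counts was 14.8 to 34.1% in MOCK and 3.44 to 14.1% in CYGB. Another LTBP3 transcript, ENST00000532932, had 1195, 1345 and 1433 counts in MOCK and 2024, 1195 and 1452 in CYGB. CYGB replicate 1 alone stood well above the MOCK libraries. The others were transcripts annotated for nonsense-mediated decay, the pathway that removes mRNA with early stops. ENST00000638429 of BMPR1A had 51, 203 and 106 counts in MOCK and 9, 22 and 12 in CYGB (log2 fold change -3.03, SE 0.66, adjusted p = 0.609 by the same test). The CYGB libraries did not all give this transcript enough counts (9 in replicate 1), so being tested depended on MOCK, where it was high. The coding transcript ENST00000372037 held 94.6 to 99.0% of the BMPR1A counts in every library. ENST00000594537 of LTBP4 had 30, 23 and 18 counts in MOCK and 4, 5 and 5 in CYGB, at most 0.321% of the gene's counts (log2 fold change -2.33, SE 0.42, adjusted p = 0.403 by the same test). Only the MOCK libraries gave this transcript enough counts to be tested.

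Below the threshold, 2 transcripts had an unadjusted p under 0.05 besides those named. ENST00000554980 of TGFB3, with a retained intron, had 72, 104 and 66 counts in MOCK and 25, 16 and 41 in CYGB. The coding TGFB3 transcript ENST00000238682 had 1, 0 and 76 counts in MOCK and 82, 147 and 118 in CYGB, while the gene as a whole had a log2 fold change of 0.16 (SE 0.17), and 1.02 with coding transcripts alone (adjusted p = 0.947 by edgeR's quasi-likelihood test). ENST00000262158 of SMAD7 had 13, 18 and 20 counts in MOCK and 34, 410 and 31 in CYGB, where CYGB replicate 2 held most of the counts. In that same library ENST00000545051, which retains an intron, had 373 counts, against 768 to 1249 in the other libraries.

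TGFBR2 was even in total while its isoforms were not. ENST00000295754 had 855, 2109 and 2821 counts in MOCK and 225, 1902 and 2247 in CYGB, and ENST00000359013, which has the 75-base exon shown above, had 2089, 1043 and 134 counts in MOCK and 2870, 1251 and 824 in CYGB. The share of ENST00000359013 ran from 4.53 to 71.0% within MOCK and from 26.8 to 92.7% within CYGB, although the total varied by no more than 1.09-fold in CPM within a group. Only 5.21% of its 150-base windows, and 5.55% of those of ENST00000295754, were shared by no other TGFBR2 transcript of the table.

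Isoform counts also swung in other members, some of them with uneven totals. In TGFBR1, ENST00000374990 had 3509 counts in CYGB replicate 2 and 355 in MOCK replicate 2, and 0 in the other 4 libraries, and ENST00000552516 was at its lowest, 575 counts, in CYGB replicate 2. ENST00000374994, which lacks the 12 bases shown above, had 1219, 3446 and 290 counts in MOCK and 511, 1349 and 394 in CYGB. In SMAD9, MOCK replicate 1 had 0 counts on ENST00000399275 and 574 on ENST00000350148, whereas the other 5 libraries had 537 to 735 on the former and at most 175 on the latter. TGFB2 had 96 of its 97 counts on ENST00000366930 in MOCK replicate 3 and 0 on that transcript in each other library. In ID2, ENST00000396290 held 7675 counts in MOCK replicate 1 and 90 to 1771 elsewhere, and ENST00000234091 held 27 counts there and 1988 to 5231 elsewhere. Most SMURF2 counts were placed on ENST00000582081, annotated for nonsense-mediated decay, with a share of 50.4 to 94.5% in every library, and the coding ENST00000262435 had 839, 6965 and 646 counts in MOCK and 641, 6364 and 4327 in CYGB.

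**Figure D4:**
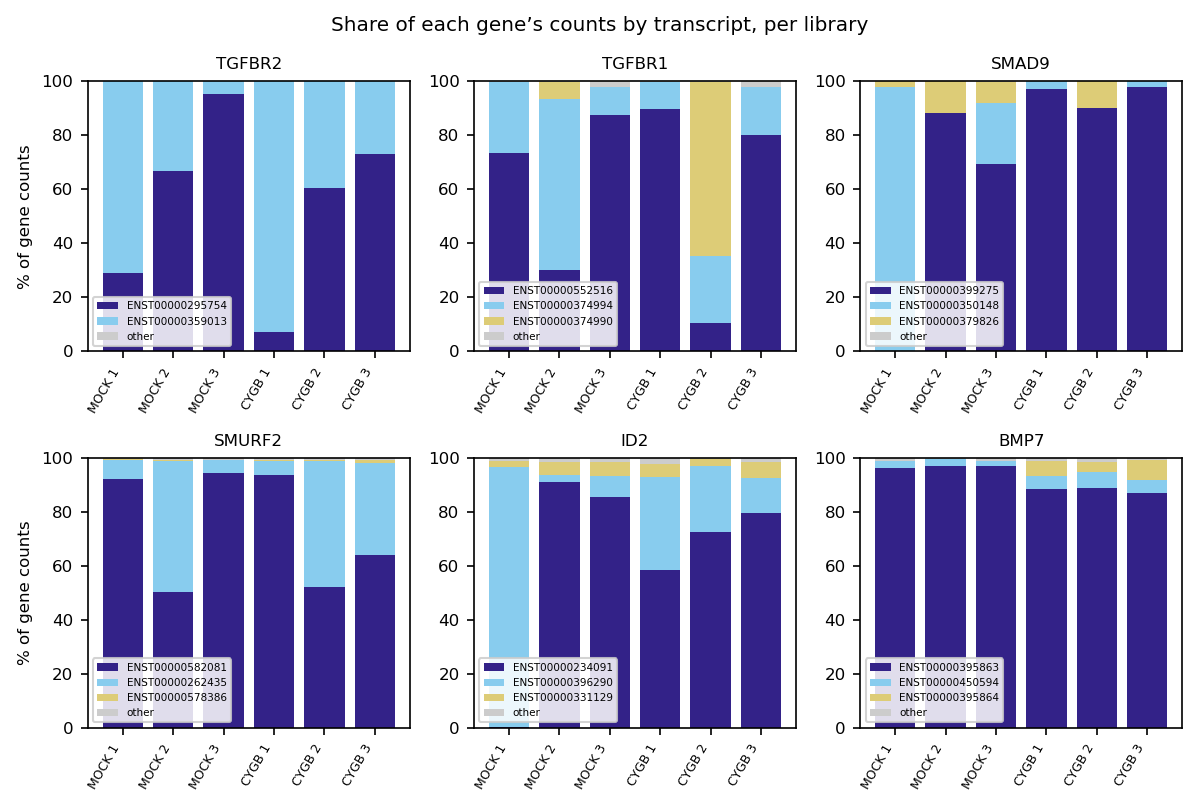
Share of a gene's counts (percent, vertical axis) on its 3 most abundant transcripts and on all others, in each of the 6 libraries, for TGFBR2, TGFBR1, SMAD9, SMURF2, ID2 and BMP7. Shares moved between libraries of 1 group in the first 5 genes, and in BMP7 the main transcript held 87.1 to 97.2% throughout.

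Across the members, 41 of 89 tested transcripts with a mean of at least 50 counts (46.1%) had a 4-fold or wider spread within a group, against 35.1% of all such transcripts. The wide ones had a median of 5.21% of 150-base windows that no other transcript of the gene shared, with 9 of 41 having none. The remaining 48 had a median of 27.9%, with 3 having none. How the counting divided such reads between isoforms is not given in the sources used here, and its part in these values was not tested.

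Beyond the members, 98 further ligands, receptors, antagonists, activators, SMAD partners and target genes of the pathways were listed. Of these 97 were in the table and 74 were tested. The threshold of the study's methods was passed by 1 that was higher in CYGB, against 0.280% of all tested genes, and by 1 that was lower, against 0.285%. At an adjusted p under 0.05 there were 0 with edgeR's quasi-likelihood test, against 0.0550% of all tested genes. With DESeq2 there were 2 of the 74, LRRC32 and AMH, against 0.543% of all tested genes. An unadjusted p under 0.05 was reached by 3 (4.05%, against 4.54% of all tested genes), and groups did not overlap in 8 (10.8%, against 11.0%), both near the background. The log2 fold change was above 0 for 39 and below 0 for 35, with a median of 0.04 against -0.01 over all tested genes.

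LRRC32 (GARP), which tethers latent TGF-β to the cell surface, was the one that was higher. It had 44, 19 and 37 counts in MOCK and 170, 182 and 172 in CYGB, with every CYGB library above every MOCK library. The log2 fold change was 2.35 (SE 0.36, adjusted p = 0.423 by edgeR's quasi-likelihood test), and DESeq2 gave an adjusted p of 1.55e-07. With 1 library left out it ranged from 2.04 to 2.65 and passed the threshold each time. The transcript that carried the counts differed within the group. ENST00000260061 had 170, 6 and 171 counts in the CYGB libraries and ENST00000407242 had 0, 176 and 0, both coding. The short ENST00000464145, which is not coding, had 28, 10 and 9 counts in MOCK and 0, 0 and 1 in CYGB. The level per length, to which so short a transcript adds more, was 1.24 ± 0.781 TPM in MOCK and 1.60 ± 0.0701 TPM in CYGB (SD, n = 3 each). With coding transcripts alone, a fit added later with the data in view, the log2 fold change was 3.26 (adjusted p = 0.278 by edgeR's quasi-likelihood test).

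AMH, anti-Müllerian hormone and a distant relative of the BMPs, was the one that was lower. It had 927, 478 and 71 counts in MOCK and 56, 55 and 40 in CYGB (log2 fold change -3.34, SE 0.91, adjusted p = 0.963 by edgeR's quasi-likelihood test). MOCK replicate 3 was close to the CYGB libraries. All of these counts were on ENST00000589313, which retains an intron, and the coding transcript ENST00000221496 was at 0 in every library. The call was lost with any 1 library left out except MOCK replicate 3, and over those 6 fits the log2 fold change ranged from -3.86 to -2.41. BMP8A, another BMP ligand gene, had 288, 327 and 216 counts in MOCK and 206, 139 and 201 in CYGB (log2 fold change -0.63, SE 0.25, adjusted p = 0.963 by the same test). It has a near-identical paralog, BMP8B, so its counts are uncertain.

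Target genes gave no call in either branch. Of all tested genes 0.565% were called, and at that share lists this short would mostly hold none. Of 15 tested TGF-β targets 0 passed the threshold, with log2 fold changes from -1.52 to 0.88 and a median of 0.04. CDKN1A, the cell cycle inhibitor p21 and also a p53 target, led this list in level. It had 11881, 29932 and 11904 counts in MOCK and 25650, 29476 and 34453 in CYGB, so MOCK replicates 1 and 3 were below every CYGB library and MOCK replicate 2 among them (log2 fold change 0.73, SE 0.36). Without MOCK replicate 2 it was 1.27 and passed the threshold (adjusted p = 0.179 by edgeR's quasi-likelihood test), and with any other library left out it was 0.51 to 0.82 and did not. ANGPTL4, a secreted regulator of lipoprotein lipase, had 8733, 12890 and 12890 counts in MOCK and 8727, 13286 and 11783 in CYGB. Of 7 tested BMP targets 0 passed, with log2 fold changes from -0.33 to 0.48. The homeobox gene MSX1 had 6723, 6121 and 4494 counts in MOCK and 5345, 4362 and 4406 in CYGB, and MSX2 had 2828, 3016 and 2401 against 3510, 3211 and 2807, so the log2 fold changes of these related targets were of opposite sign, at -0.33 (SE 0.20) and 0.19 (SE 0.15).

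Among the remaining lists, 0 of 6 receptors and co-receptors, 0 of 7 secreted antagonists and 0 of 20 SMAD partners passed the threshold. The share of all tested genes was 0.565%, near which these short lists lie. The antagonists NBL1, at 8577 to 9251 counts, and TWSG1, at 7980 to 9138 counts, had log2 fold changes of -0.0042 (SE 0.07) and -0.05 (SE 0.07). The SMAD partners FKBP1A and STRAP, the former a brake on the type I receptor and the latter a partner of SMAD7, had values of 0.18 (SE 0.19) and 0.13 (SE 0.11) on the same scale. BAMBI, a decoy receptor, and RGMA, a BMP co-receptor, had log2 fold changes of 0.22 (SE 0.28) and -0.06 (SE 0.12). The protease FURIN, which cleaves TGF-β precursors, and the integrin ITGAV, which frees latent TGF-β, had values of 0.04 (SE 0.08) and -0.17 (SE 0.09). ITGAV was among the 8 genes without overlap counted above, whose share was near the background, with every CYGB library below every MOCK library in CPM. Of the other ligands, GDF15 had 7757, 8376 and 7491 counts in MOCK and 6812, 10209 and 8698 in CYGB, and BMP1, a procollagen protease named as a BMP, had 1548, 2375 and 3007 against 3460, 3139 and 2038.

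**Figure D5:**
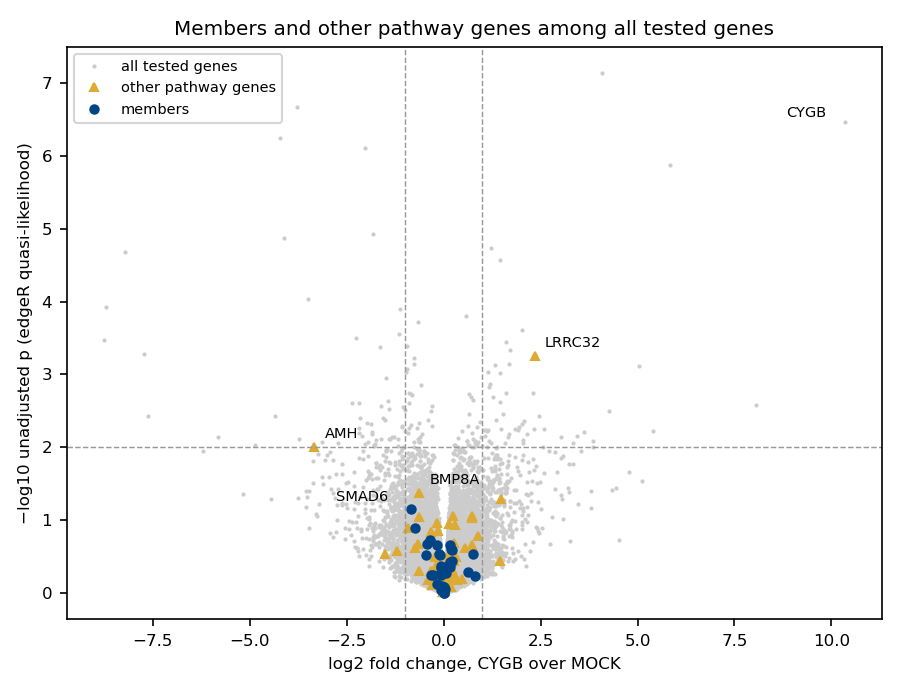
Log2 fold change of CYGB over MOCK (horizontal axis) against −log10 of the unadjusted p of edgeR's quasi-likelihood test (vertical axis) for the 19987 tested genes in grey, with the other pathway genes as triangles and the members as circles. Dashed lines mark the threshold of the study's methods, past which lie LRRC32 and AMH and none of the 35 tested members.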

How the data were processed

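HCT116 RNA was sequenced with paired 150-base reads from an unstranded library kit (NEBNext Ultra). The authors deposited raw counts per transcript in 1 table, not normalized. The submitters' notes name HISAT2, HISAT, DESeq2 and the build hg19, but of 151393 transcripts found in GENCODE 29, 99.6% had its GRCh38 position, so coordinates are GRCh38. The counting tool is not given in the sources used here. Transcripts without a gene (18.6 to 19.5% of counts) were left out.

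Counts were summed per gene or kept per transcript, kept by filterByExpr (minimum count 10), scaled by TMM, and tested with edgeR 4.0.16 (quasi-likelihood, R 4.3.3), CYGB against MOCK, over all features, with Benjamini-Hochberg adjustment. CPM used TMM library sizes, and TPM the GENCODE transcript lengths. Intervals are at 95% from the same fit. Every pair of libraries differed beyond sampling noise (lowest chi-square for each gene 72.9), and none was merged. The steps were run on simulated counts with 200 features changed 8-fold, which does not show how often smaller changes would be found. An exact permutation test of 3 against 3 cannot go below p = 0.1.

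The 38 members and the other lists were chosen with earlier results of these data known. By rule, values per library were given for members with a called transcript, the highest of each role, and 8 genes of known weight (TGFB3, SMAD4, TGFBR2, ACVR2A, SMAD7 and ID1 to ID3). Those of most other members were added to account for all of them. Of the other pathway genes, called genes, those at p under 0.05 and the 2 highest of each role were named. The members and transcripts described for their spread between libraries were chosen after their values were seen. Alternatives were DESeq2, DESeq2's size factors, no filter, a mean of at least 50 counts, a replicate block, the most abundant transcript, transcripts without a gene included, each library left out, and coding transcripts alone (added after the data were seen).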

Additional observations from a re-analysis of the deposited data

How the results depend on the processing

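At the level of the gene 0 members passed the threshold under every alternative run except the fit without MOCK replicate 3, where SMAD6 did (range 0 to 1 with 1 library left out), and the lowest adjusted p of any member under any alternative was 0.303. At an unadjusted p under 0.05 by edgeR's quasi-likelihood test, 0 members became 2 with the replicate block (LTBP3 and SMAD1). They became 2 with coding transcripts alone (TGFB3 and LTBP3) and 0 to 2 with 1 library left out. The 4 called member transcripts became 6 with DESeq2 (the same 4, ENST00000450594 of BMP7 and ENST00000554980 of TGFB3), 2 at a mean of at least 50 counts, 2 with coding transcripts alone, 1 with the replicate block and 2 to 5 with 1 library left out, fewest without CYGB replicate 1. At an adjusted p under 0.05, 0 member transcripts with edgeR became 4 with DESeq2. The 2 called other pathway genes became 1 at a mean of at least 50 counts, 1 with the replicate block, 1 with transcripts without a gene included, 1 with coding transcripts alone, and 1 to 2 with 1 library left out. Beside LRRC32 this was CDKN1A without MOCK replicate 2, AMH without MOCK replicate 3 and, at -1.01, the BMP antagonist NOG without CYGB replicate 2, which was named after its values were seen (log2 fold change -0.63 with all libraries). LRRC32 stayed past the threshold in all of these. The 113 called genes of the whole table became 263 with DESeq2, 62 at the filter of 50 counts, 72 when transcripts that have no gene were included, and 124 to 177 with 1 library left out, most without MOCK replicate 3. The causes were not tested, beyond the smaller number of features under the stricter filter.

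Of 489 member fold changes under alternatives 447 kept their sign and side of the threshold, 41 changed sign and 1 newly passed it. By the most abundant transcript the log2 fold change turned to 0.92 for TGFB2, 0.23 for LTBP3, -0.40 for TGFBR2, 0.0601 for BMPR2, 0.18 for ACVR1B, 0.0306 for SMAD2 and 0.70 for ID2. LTBP2 turned to 0.0007 with DESeq2, 0.0005 with its size factors and 0.0025 with coding transcripts alone, SMAD9 to -0.002 at the filter of 50 counts and -0.0019 with coding transcripts alone, and SMURF2 to 0.44 with coding transcripts alone. Without a change of sign, coding transcripts alone moved TGFB3 to 1.02, SMAD7 to 1.17 and SMAD6 to -1.51, and the most abundant transcript gave 2.16 for TGFB3, 0.76 for SMAD9 and -1.52 for SMAD6. With 1 library left out 13 members changed sign, in the ranges -0.16 to 0.25 (BMP4), -0.0656 to 0.0278 (BMPR2), -0.66 to 0.44 (ID2), -0.13 to 0.0866 (LTBP2), -0.51 to 0.0771 (LTBP4), -0.68 to 0.0849 (SKIL), -0.42 to 0.21 (SMAD2), -0.0954 to 0.0724 (SMAD9), -0.17 to 0.052 (SMURF1), -0.17 to 0.01 (TGFB1), -0.69 to 0.40 (TGFB2), -0.27 to 0.29 (TGFBR1) and -0.0096 to 0.0485 (TGFBR2). ACVR2B ranged from 0.29 to 3.18.

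The replicate numbers did not pair the libraries, whose deviations from the group means correlated at 0.016, 0.0049 and 0.025 across genes for numbers 1 to 3. With the replicate block SMAD2 turned to 0.0619, the adjusted p of CYGB was 0.17, and AMH was no longer called (log2 fold change -2.75). BMP2, INHBA and BMPR1B had too few counts to be tested at this depth.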
